A study of Homo sapiens with 6 samples.

Results

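The IL6 and LIF axis was followed through 10 genes, taken from the 23346 genes of the count table by their symbols. They are the cytokines IL6, LIF, IL11 and CLCF1, the receptors IL6ST, LIFR, OSMR and IL6R, the transcription factor STAT3 and the feedback inhibitor SOCS3. All 10 were present in the table and 9 of them were expressed highly enough to be tested, which required more than 1 CPM (counts scaled to library size) in at least 3 of the 6 libraries. Of all genes in the table, 12186 met that requirement.

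The cells were BT549, an established human breast cancer line of mesenchymal character, grown in RPMI medium with serum. They received either a control siRNA (NC siRNA, 3 libraries) or, according to the methods, a mix of 3 siRNAs against the zinc finger protein BNC2 (BNC2 siRNA, 3 libraries). Both groups carried the same genotype, were transfected at 20 nM, had their medium changed after 6 h and were profiled by poly(A) RNA-seq on day 6. The transfection reagent in the labels is a Lipofectamine other than RNAiMax, which the methods give for siRNAs.

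Each library held between 16093978 and 18246254 counts in genes. BNC2 itself lay at 65.6, 51.5 and 58.6 CPM with NC siRNA and at 35.5, 36.6 and 41.6 CPM with BNC2 siRNA, so its mRNA was lowered to 64.6% of control (log2 fold change -0.63, SE 0.09, adjusted p = 8.2e-06) and not removed. The mesenchymal markers VIM, CDH2, FN1 and ZEB1 were all expressed, with a summed level of 4030 to 4116 CPM in NC siRNA libraries and 4846 to 5077 CPM in BNC2 siRNA libraries, whereas each of the epithelial markers CDH1, EPCAM, ESRP1 and GRHL2 had at most 1 count in any library. Of the 6 leukocyte markers, whose sum was 2.80 to 3.38 CPM in NC siRNA libraries and 2.88 to 3.44 CPM in BNC2 siRNA libraries, the pan-leukocyte gene PTPRC had at most 7 counts in a library. The 2 leukocyte markers that were tested passed the filter through the group in which each was higher, the controls for CD14 and the BNC2 siRNA libraries for ITGAM. They moved in opposite directions, CD14 with a log2 fold change of -1.42 (SE 0.31, adjusted p = 0.000523) and ITGAM with 1.15 (SE 0.25, adjusted p = 0.000653), and their part in the results was not tested. All values below are transcript levels per culture, in which fewer expressing cells and less RNA per cell cannot be told apart.

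Cytokines of the IL6 family bind a receptor specific to each ligand and then recruit the shared signalling chain gp130, the product of IL6ST. IL6 and IL11 use receptors without signalling activity of their own (IL6R and IL11RA) and a pair of gp130 chains, whereas LIF and CLCF1 bring gp130 together with LIFR, and oncostatin M pairs gp130 with LIFR or OSMR. Janus kinases bound to these chains phosphorylate STAT3, which enters the nucleus and switches on target genes that include SOCS3, whose product binds gp130 and the kinases and shuts the signal down.

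In BNC2 siRNA libraries the 3 tested cytokines fell and 3 of the 4 receptors rose. LIF was 10.3-fold lower, IL6 fell to 17.4% and CLCF1 to 52.8% of control, while IL6R was 5.84-fold higher and LIFR and OSMR were 1.97-fold and 1.91-fold higher. The shared chain IL6ST moved against the other receptors and fell to 68.5% of control. STAT3 rose 1.26-fold and SOCS3 rose 2.01-fold. All 9 tested members passed the test at an adjusted p of at most 0.05, 5 upwards and 4 downwards. These counts stand against a wide response of the cells, since 72.9% of all tested genes passed, 36.6% upwards and 36.2% downwards. The libraries of the groups did not overlap for any of the 9 members, which was also true of 74.9% of all tested genes. A call alone therefore sets a member little apart from other genes, and the size of the change says more. The median size of the log2 fold change, regardless of sign, was 0.98 over the 9 members and 0.44 over all genes tested. The members were chosen with earlier results of these data known, so this comparison describes them and is not a test.

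**Figure D1:**
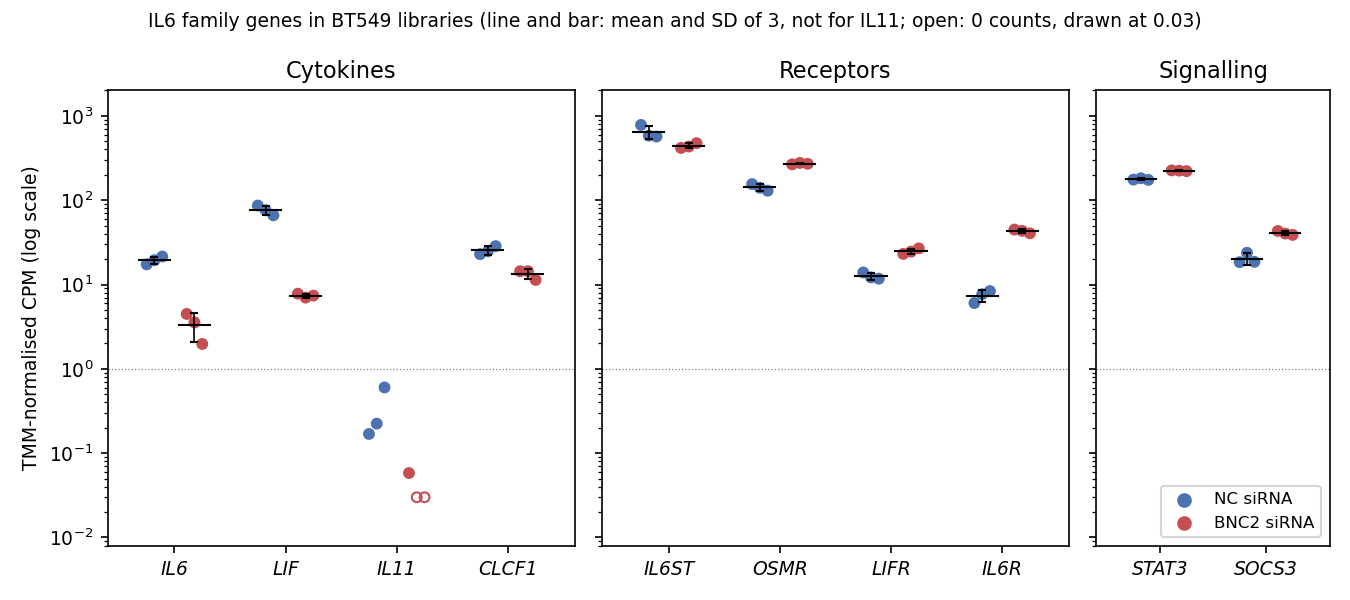
Level of each of the 10 genes in each library, in TMM-normalised CPM on a log axis, with NC siRNA in blue, BNC2 siRNA in red, and the mean and SD of 3 libraries for all genes but IL11. LIF dropped from 76.2 to 7.39 CPM and IL6R climbed from 7.36 to 42.9 CPM, and for each of the 9 genes above the dotted line at 1 CPM the colours are apart.

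The regulatory sequence at the start of these genes is shown for the members where one of 3 short motifs was found and the change was tested. Windows of 300 bases, from 250 before to 50 after each annotated start site, were taken from RefSeq (GRCh38.p14) and were at hand for 8 of the 10 members, with 11 windows in all. LIF and CLCF1 had no entry in the set of windows used, which does not show whether RefSeq annotates their start sites. The motifs were a STAT site (TTCNNNGAA), an AP-1 site (TGANTCA) and an NF-kappaB site (GGGANTTTCC), searched on both strands, and no motif found in these windows overlapped another. Capitals mark the match and each sequence reads 5′ to 3′ along the gene. Positions give the first base of the match counted from the start site, which is position 1, with negative numbers upstream.

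The window of IL6, which fell, on the plus strand at chr7:22726950-22727249, with an NF-kappaB match at position -73 from the start site:
IL6: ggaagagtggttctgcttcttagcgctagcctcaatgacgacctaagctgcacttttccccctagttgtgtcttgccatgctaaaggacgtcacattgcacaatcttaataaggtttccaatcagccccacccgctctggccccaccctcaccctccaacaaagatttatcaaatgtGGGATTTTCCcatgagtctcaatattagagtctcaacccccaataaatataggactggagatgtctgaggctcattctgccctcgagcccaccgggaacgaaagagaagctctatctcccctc

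The window of IL6R, the member that rose most, on the plus strand at chr1:154405093-154405392, with an AP-1 match at position 38 from the start site:
IL6R: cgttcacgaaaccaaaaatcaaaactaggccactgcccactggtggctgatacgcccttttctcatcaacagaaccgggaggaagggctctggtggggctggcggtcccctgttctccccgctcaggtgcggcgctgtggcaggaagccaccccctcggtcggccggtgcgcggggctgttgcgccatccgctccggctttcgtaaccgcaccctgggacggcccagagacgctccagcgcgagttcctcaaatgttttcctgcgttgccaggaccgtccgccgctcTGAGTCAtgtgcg

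The window of OSMR, which rose, on the plus strand at chr5:38845762-38846061, with an AP-1 match at position 4 from the start site:
OSMR: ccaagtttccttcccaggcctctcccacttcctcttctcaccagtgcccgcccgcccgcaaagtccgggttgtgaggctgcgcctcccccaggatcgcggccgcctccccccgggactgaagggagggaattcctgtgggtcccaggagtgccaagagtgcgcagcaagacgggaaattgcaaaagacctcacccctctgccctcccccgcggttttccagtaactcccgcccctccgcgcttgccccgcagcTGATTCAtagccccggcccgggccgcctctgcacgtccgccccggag

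The windows of LIFR, which rose, on the minus strand at 2 of its 3 start sites, chr5:38595356-38595655 and chr5:38557418-38557717, with STAT matches at positions -165 and -182 from the start site:
LIFR, first start site: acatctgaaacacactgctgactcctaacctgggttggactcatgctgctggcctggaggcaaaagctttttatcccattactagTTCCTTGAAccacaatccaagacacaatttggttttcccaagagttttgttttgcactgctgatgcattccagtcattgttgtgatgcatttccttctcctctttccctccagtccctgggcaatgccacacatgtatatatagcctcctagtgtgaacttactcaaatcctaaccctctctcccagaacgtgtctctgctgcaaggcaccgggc
LIFR, second start site: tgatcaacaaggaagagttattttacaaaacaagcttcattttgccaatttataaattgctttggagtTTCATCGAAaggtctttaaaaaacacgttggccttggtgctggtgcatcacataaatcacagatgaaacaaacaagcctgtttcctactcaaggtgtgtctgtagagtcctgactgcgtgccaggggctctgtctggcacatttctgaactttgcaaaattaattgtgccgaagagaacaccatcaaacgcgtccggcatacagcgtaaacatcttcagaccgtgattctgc

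An NF-kappaB match of these letters occurs in 0.558% of the 35116 RefSeq promoter windows, an AP-1 match in 7.71% and a STAT match in 7.66%. IL11 also held an AP-1 match, at position -96. The windows of IL6ST, STAT3 and SOCS3 held none of the 3 sets of letters. AP-1 matches thus occurred in IL11, which was too low to test, and in OSMR and IL6R, which rose. STAT matches lay in LIFR, which also rose, and the only NF-kappaB match lay in IL6, which fell. LIF and CLCF1, which fell too, had no window, and a link between motifs and direction was not tested.

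LIF, a cytokine of stem cell self-renewal and of inflammation that signals through LIFR and gp130, changed most among the 9 tested members. Its gene lies at chr22:30636442-30642748 on the minus strand (GRCh37). LIF stood at 86.5, 76.1 and 66.2 CPM after NC siRNA transfection and at 7.79, 7.0 and 7.39 CPM after BNC2 siRNA transfection. The lowest control library was far above the highest BNC2 siRNA library, and the 3 BNC2 siRNA libraries were close to each other. LIF fell from 76.2 ± 10.2 to 7.39 ± 0.399 CPM (SD, n = 3 in each group), a log2 fold change of -3.37 (SE 0.11, adjusted p = 1.3e-13 by edgeR). Only 0.706% of all tested genes had a lower log2 fold change.

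IL6, the founding cytokine of the family and a driver of inflammation and of the acute phase response, lies at chr7:22765503-22771621 on the plus strand (GRCh37). It was measured at 17.3, 19.4 and 21.5 CPM with NC siRNA and at 4.48, 3.55 and 1.97 CPM with BNC2 siRNA. All control libraries were above all BNC2 siRNA libraries, and the latter varied more in proportion, the lowest resting on 31 counts and the highest on 77. IL6 fell from 19.4 ± 2.07 to 3.34 ± 1.27 CPM (SD, n = 3 in each group), with a log2 fold change of -2.52 (SE 0.18, adjusted p = 2.16e-09 by edgeR). Its log2 fold change was undercut by 1.61% of all tested genes.

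CLCF1, a cytokine of neurons and B cells that acts through CNTFR, LIFR and gp130, lies at chr11:67131639-67141648 on the minus strand (GRCh37). It reached 22.9, 24.8 and 28.5 CPM in NC siRNA libraries, and 14.4, 14.4 and 11.3 CPM in BNC2 siRNA libraries. The groups did not overlap, and the change was smaller than for LIF and IL6. CLCF1 fell from 25.4 ± 2.85 to 13.4 ± 1.76 CPM (SD, n = 3 in each group), with a log2 fold change of -0.92 (SE 0.11, adjusted p = 1.24e-06 by edgeR). Its annotated span overlaps an unnamed gene on the same strand and RAD9A on the other, and reads on the other strand amounted to at most 4.94% of its reads of both strands in any library. For each of the other tested members this share was at most 1.69%.

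IL11, a cytokine of bone, platelets and fibrosis that uses IL11RA and gp130, was close to the limit of detection. Its gene is at chr19:55875750-55881831 on the minus strand (GRCh37). The NC siRNA libraries held 3, 4 and 10 IL11 counts and the BNC2 siRNA libraries 1, 0 and 0 counts. Both groups lay below 1 CPM, with a highest value of 0.602 CPM, and IL11 was not tested. Summed over the libraries of a group, 17 counts stood against 1 count, a ratio of 16.5 after scaling to library size with a 95% exact interval of 2.58 to 689 that covers counting error only.

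Of the 4 member receptors, IL6R changed most. It encodes the IL6-binding chain, which is found on few cell types and also circulates in a soluble form, and lies at chr1:154377669-154441926 on the plus strand (GRCh37). Control libraries stood at 6.03, 7.67 and 8.37 CPM and BNC2 siRNA libraries at 44.8, 43.3 and 40.5 CPM. Each BNC2 siRNA library was several times above each control library. IL6R rose from 7.36 ± 1.20 to 42.9 ± 2.21 CPM (SD, n = 3 in each group), with a log2 fold change of 2.55 (SE 0.11, adjusted p = 3.59e-12 by edgeR). Only 0.443% of all tested genes had a higher log2 fold change. In the same libraries the transcript of the ligand IL6 had fallen.

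OSMR, the oncostatin M receptor chain and also the partner of IL31RA, lies at chr5:38845960-38945698 on the plus strand (GRCh37). It showed 155, 140 and 130 CPM in control libraries and 266, 277 and 270 CPM in BNC2 siRNA libraries. The groups were apart and BNC2 siRNA libraries varied little. OSMR rose from 142 ± 12.9 to 271 ± 5.43 CPM (SD, n = 3 in each group), with a log2 fold change of 0.94 (SE 0.06, adjusted p = 1.41e-09 by edgeR), exceeded by 9.24% of all tested genes.

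LIFR, the chain that recognises LIF, lies at chr5:38474770-38608456 on the minus strand (GRCh37). It was at 13.9, 12.2 and 11.7 CPM with NC siRNA and at 23.1, 24.5 and 26.9 CPM with BNC2 siRNA. All BNC2 siRNA libraries were above all control libraries. LIFR rose from 12.6 ± 1.15 to 24.8 ± 1.91 CPM (SD, n = 3 in each group), with a log2 fold change of 0.98 (SE 0.10, adjusted p = 1.65e-07 by edgeR). LIFR and OSMR are neighbours on chromosome 5, 237.5 kb apart on opposite strands with no protein-coding gene between them.

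IL6ST, which encodes gp130, was the one of the 4 member receptors that fell. It lies at chr5:55230923-55290850 on the minus strand (GRCh37). Its levels were 781, 582 and 569 CPM after NC siRNA and 417, 433 and 475 CPM after BNC2 siRNA. One control library stood well above the other two, and the lowest control library was still above the highest BNC2 siRNA library. IL6ST fell from 644 ± 119 to 442 ± 29.8 CPM (SD, n = 3 in each group), with a log2 fold change of -0.55 (SE 0.09, adjusted p = 6.61e-05 by edgeR). Without the high control library, NC siRNA replicate 1, the log2 fold change was -0.40 and IL6ST still passed the test. Its neighbour IL31RA, a gp130-like receptor of IL31 that lies 12.2 kb away on the opposite strand, went the other way. It was at 4.39, 5.15 and 4.76 CPM in control libraries and 50.4, 49.7 and 49.9 CPM in BNC2 siRNA libraries.

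STAT3, the transcription factor that all of these receptors activate, lies at chr17:40465342-40540558 on the minus strand (GRCh37). It measured 176, 182 and 174 CPM with NC siRNA and 226, 224 and 221 CPM with BNC2 siRNA. Libraries within a group differed little and the groups were apart. STAT3 rose from 177 ± 4.24 to 224 ± 2.37 CPM (SD, n = 3 in each group), with a log2 fold change of 0.33 (SE 0.05, adjusted p = 2.54e-05 by edgeR). It was the smallest change among the tested members, and 30.3% of all tested genes had a higher log2 fold change. The libraries measure the STAT3 transcript and not its phosphorylation.

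SOCS3, a STAT3 target whose product inhibits gp130 signalling, lies at chr17:76352859-76356158 on the minus strand (GRCh37). It was found at 18.4, 23.8 and 18.6 CPM in control libraries and at 43.2, 40.2 and 38.8 CPM in BNC2 siRNA libraries. The groups did not overlap. SOCS3 rose from 20.3 ± 3.06 to 40.7 ± 2.23 CPM (SD, n = 3 in each group), with a log2 fold change of 1.00 (SE 0.10, adjusted p = 9.46e-08 by edgeR), and 7.99% of all tested genes had a higher one.

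**Figure D2:**
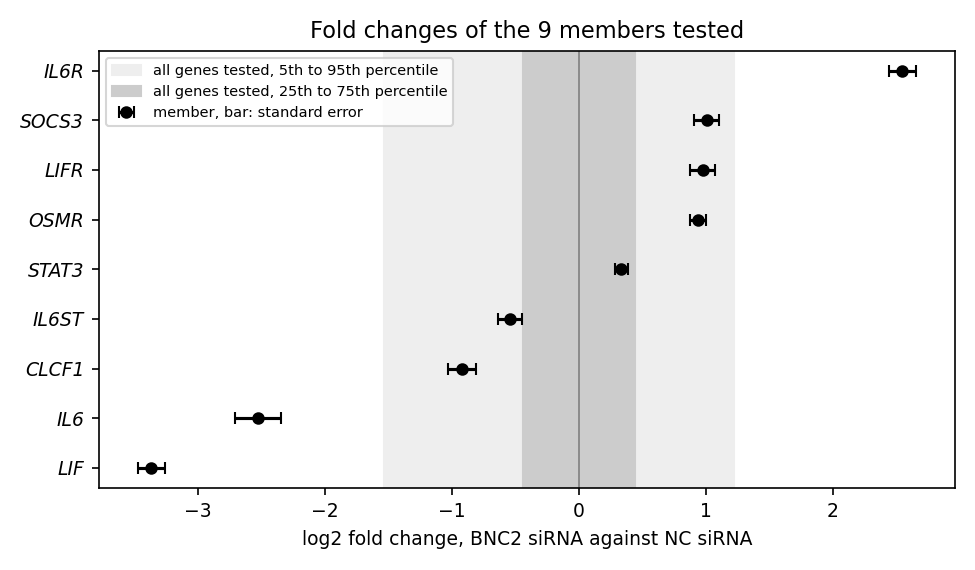
Log2 fold change of BNC2 siRNA against NC siRNA for the 9 members tested (points, with the standard error as bars), over the range of all 12186 genes tested (light grey, 5th to 95th percentile; dark grey, 25th to 75th percentile). LIF (-3.37), IL6 (-2.52) and IL6R (2.55) lie outside the light grey range of -1.54 to 1.22, and STAT3 (0.33) lies within the dark grey range.

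To set the members side by side, levels were divided by the length of the exons of each gene (CPM per kb, over all annotated exons). In control libraries IL6ST had the highest level, at 53.4 ± 9.87 CPM per kb (SD, n = 3). OSMR followed at 19.8 ± 1.79 and LIF at 19.7 ± 2.62 CPM per kb, and the libraries of this pair overlapped. Then came STAT3 at 15.8, CLCF1 at 13.8, SOCS3 at 7.42 and IL6 at 4.50 CPM per kb, each apart from the next. IL6R at 1.05 and LIFR at 1.04 CPM per kb overlapped, and IL11 was lowest at 0.124 CPM per kb.

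The order in BNC2 siRNA libraries was different. OSMR stood first at 37.8 ± 0.756 CPM per kb (SD, n = 3), and overlapped with IL6ST at 36.6 ± 2.47 CPM per kb. STAT3 at 20.0 and SOCS3 at 14.9 CPM per kb were next and apart from each other. CLCF1 at 7.28 and IL6R at 6.13 CPM per kb overlapped, as did LIFR at 2.04 and LIF at 1.91 CPM per kb. IL6 followed at 0.772 CPM per kb and IL11 at 0.00724 CPM per kb. LIF thus moved from rank 3 to rank 8, IL6R from rank 8 to rank 6 and SOCS3 from rank 6 to rank 4. With the mean length of the annotated transcripts in place of all exons, some neighbours changed places, STAT3 with LIF, SOCS3 with IL6 and IL6R with LIFR in the controls, and CLCF1 with IL6R in BNC2 siRNA libraries. OSMR then stood at 149.8 CPM per kb and IL6ST at 82.3 CPM per kb in BNC2 siRNA libraries.

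Added up per kb, the 4 cytokine transcripts dropped from 38.2 ± 0.639 to 9.97 ± 1.26 CPM per kb (SD, n = 3 in each group). The mixture also shifted. LIF made up 51.6% ± 6.14 of the sum in controls and 19.4% ± 2.65 in BNC2 siRNA libraries, whereas the share of CLCF1, which fell less, went from 36.3% ± 4.52 to 73.0% ± 1.64. IL6 accounted for 11.8% ± 1.42 and 7.57% ± 2.10 of the sum. With mean transcript lengths, the IL6 share was 23.9% ± 2.71 in controls and 17.4% ± 4.39 in BNC2 siRNA libraries and the groups overlapped, while CLCF1 went from 27.1% ± 3.19 to 61.8% ± 2.29.

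The sum over the 4 receptor transcripts was 75.3 ± 11.5 CPM per kb in controls and 82.6 ± 2.53 CPM per kb in BNC2 siRNA libraries (SD, n = 3 in each group), and the libraries of the groups overlapped. With mean transcript lengths this sum was 207 ± 28.6 and 265 ± 6.13 CPM per kb and the libraries did not overlap, so its comparison depends on the length used. Within this sum, the share of IL6ST went from 70.8% ± 2.22 to 44.3% ± 1.72 and that of OSMR from 26.4% ± 1.79 to 45.8% ± 1.29. IL6R contributed 1.44% ± 0.416 in controls and 7.44% ± 0.606 in BNC2 siRNA libraries. LIFR contributed 1.39% ± 0.0791 in controls, where it overlapped with IL6R, and had the smallest share in BNC2 siRNA libraries, at 2.47% ± 0.115. With mean transcript lengths the IL6ST share was 57.8% in controls and 31.1% in BNC2 siRNA libraries, again lower in all 3. With either length, LIFR, OSMR and IL6R together thus made up a larger part of the receptor transcripts in BNC2 siRNA libraries, and the shared chain a smaller part. These sums and shares describe the levels and were not tested.

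**Figure D3:**
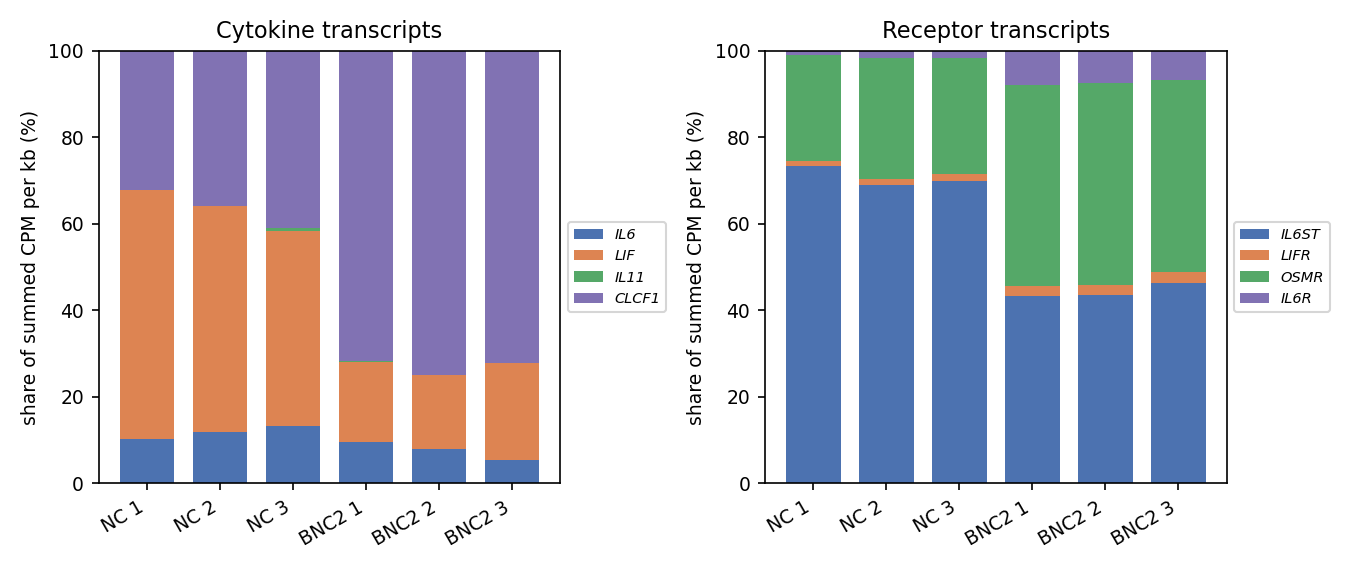
Share of each gene in the summed level per kb of the 4 cytokine transcripts (left) and the 4 receptor transcripts (right), in percent, for each of the 6 libraries. CLCF1 takes 73.0% of the cytokine sum in BNC2 siRNA libraries against 36.3% in controls, and OSMR and IL6ST take receptor shares of 45.8% and 44.3% in BNC2 siRNA libraries.

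Ratios between members within a library do not depend on library scaling. A total of 4 ratios of counts were compared between the groups with a two-sided exact permutation test, which with 3 libraries against 3 cannot give a p below 0.1, so that no ratio could pass a threshold of 0.05. The ratio of IL6R to IL6ST was 0.00771, 0.0132 and 0.0147 in controls and 0.108, 0.1001 and 0.0853 in BNC2 siRNA libraries. This ratio was higher in all 3 BNC2 siRNA libraries, by 3.09 on the log2 scale or 8.50-fold (exact p = 0.1, adjusted p = 0.2 over the 4 ratios). The ratio of SOCS3 to STAT3 was 0.105, 0.131 and 0.107 in controls and 0.191, 0.179 and 0.175 in BNC2 siRNA libraries. It too was higher in all 3 BNC2 siRNA libraries, by 0.68 on the log2 scale or 1.60-fold (exact p = 0.1, adjusted p = 0.2).

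The ratio of LIF to IL6 was 4.98, 3.92 and 3.08 in controls and 1.74, 1.97 and 3.74 in BNC2 siRNA libraries. The groups overlapped through BNC2 siRNA replicate 3, in which IL6 was lowest, and the log2 difference was -0.74 (exact p = 0.2, adjusted p = 0.267). The ratio of OSMR to LIFR was 11.2, 11.5 and 11.04 in controls and 11.5, 11.3 and 10.1 in BNC2 siRNA libraries. These values overlapped, with a log2 difference of -0.040 (exact p = 0.8, adjusted p = 0.8), whose sign depended on 1 library. The neighbours LIFR and OSMR thus had log2 fold changes of 0.98 and 0.94 and a ratio whose libraries overlapped between the groups.

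The rest of the pathway was read from 4 lists with 66 genes, of which 47 were tested. In all, 13 of them rose, 24 fell and 10 did not pass, so that 37 of 47 were called where 72.9% of all tested genes were (36.6% upwards, 36.2% downwards). Their median log2 fold change was -0.22, against 0.0014 over all tested genes.

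Of 12 other cytokines and receptors of the family, 7 were tested, of which 2 rose and 4 fell, 6 of 7 beside 72.9% of all tested genes. IL31RA, which with OSMR forms the receptor of IL31, rose from 4.77 ± 0.380 to 49.99 ± 0.380 CPM, with a log2 fold change of 3.39 (SE 0.10, adjusted p = 2.94e-14). CTF1, cardiotrophin 1, a ligand of LIFR and gp130, rose from 2.12 ± 0.255 to 6.54 ± 0.815 CPM (log2 fold change 1.62, SE 0.18, adjusted p = 4.11e-07). It was the one tested cytokine that uses LIFR and went up. CNTFR, the binding chain for CNTF and CLCF1, fell from 5.39 to 2.37 CPM (log2 fold change -1.18, SE 0.17, adjusted p = 8.27e-06), and IL27RA, the receptor chain for IL27, had a log2 fold change of -0.35 (SE 0.08, adjusted p = 0.00132). The other genes that fell were IL12A (log2 fold change -1.42, SE 0.27) and EBI3 (-1.02, SE 0.27), subunits of heterodimeric cytokines. EBI3 passed the filter through the controls, the group in which it was higher. IL11RA did not pass (log2 fold change -0.30, SE 0.14, adjusted p = 0.0572 by the quasi-likelihood test), though it did in 3 of 14 alternatives, with an adjusted p of 0.0438 by edgeR's likelihood ratio test, 0.0218 with total counts only and 0.0389 without NC siRNA replicate 3.

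Transcripts of oncostatin M, IL31 and IL27 were scarce in these cells. OSM, the gene of oncostatin M, lies 16.1 kb from LIF on the same strand and had 2, 0 and 0 counts in controls and 0 in each BNC2 siRNA library. A count of 0 allows up to 3 counts, which here correspond to 0.168 to 0.191 CPM. IL31 and IL27 had 0 counts in all 6 libraries.

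Among the kinases and other STATs, 7 of 10 genes were tested, with 1 that rose, 2 that fell and 4 that did not pass, and a median log2 fold change of -0.025. Calls were thus 3 of 7, beside 72.9% of all tested genes. JAK1, the main kinase of gp130, fell slightly from 318 ± 13.6 to 277 ± 7.93 CPM (log2 fold change -0.20, SE 0.06, adjusted p = 0.0037). STAT2, a transcription factor of the type I interferon response, had a log2 fold change of 0.27 (SE 0.08, adjusted p = 0.00762), a call that was lost without NC siRNA replicate 3 (log2 fold change 0.19, adjusted p = 0.066). For JAK2 the log2 fold change was -0.025 (SE 0.11) and for TYK2 it was 0.078 (SE 0.06), neither of which passed. The changes in this layer were thus smaller than those of the cytokines and of IL6R.

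Of 15 SOCS, PIAS and phosphatase genes, regulators of cytokine signals, 14 were tested. Of these, 4 rose, 7 fell and 3 did not pass, with a median log2 fold change of -0.27. These 11 calls among 14 genes are close to the 72.9% of all tested genes. Of the 11, SOCS4 lost its call in 7, CISH in 5, PTPN2 in 5 and SOCS5 in 1 of 14 alternatives. SOCS1, an inhibitor of Janus kinases related to SOCS3, moved against it. SOCS1 stood at 5.07, 6.27 and 6.32 CPM in controls and 1.22, 0.959 and 0.700 CPM in BNC2 siRNA libraries, a log2 fold change of -2.60 (SE 0.22, adjusted p = 1.94e-08). Both SOCS1 and CISH passed the filter through the controls, the group in which each was higher. PTPN11, which encodes SHP2, the phosphatase that binds gp130 at the same site as SOCS3, rose from 99.4 ± 9.001 to 172 ± 4.69 CPM (log2 fold change 0.79, SE 0.07, adjusted p = 1.45e-08). SOCS6 (log2 fold change 0.57, SE 0.09) and PIAS3 (0.57, SE 0.07), whose product binds STAT3 and blocks its binding to DNA, rose as well. SOCS7 (log2 fold change -0.56, SE 0.08) and PIAS4 (-0.53, SE 0.08) fell. Of all tested genes 36.6% rose and 36.2% fell, so calls in both directions do not set this list apart.

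Of 29 genes known as STAT3 targets in various tissues, 19 were tested, 6 rose, 11 fell and 2 did not pass, with a median log2 fold change of -0.52. Beside this, 36.6% of all tested genes rose and 36.2% fell. The genes that fell most were CEBPB, a transcription factor of the acute phase response, from 156 ± 4.98 to 32.0 ± 0.803 CPM (log2 fold change -2.29, SE 0.06, adjusted p = 2.36e-14), and ICAM1, an adhesion molecule for leukocytes, from 87.5 ± 2.97 to 18.4 ± 0.0970 CPM (log2 fold change -2.25, SE 0.07, adjusted p = 9.08e-14). IRF1, an interferon-responsive transcription factor, fell by 1.49 on the log2 scale (SE 0.07, adjusted p = 2.07e-11), and the cell cycle gene CCND1 fell from 770 ± 8.26 to 295 ± 15.7 CPM (log2 fold change -1.39, SE 0.06, adjusted p = 2.24e-12). TWIST1, a transcription factor of the mesenchymal state, rose by 1.54 on the log2 scale (SE 0.07, adjusted p = 1.11e-11). CEBPD, a relative of CEBPB, rose by 1.39 on the log2 scale (SE 0.11, adjusted p = 8.24e-09). SOCS3, itself a STAT3 target but not counted in this list, rose as the smaller group of these genes did. The liver acute phase genes of the list, such as FGA, FGB, FGG, CRP and HP, were too low to test. Many of these genes also answer to other transcription factors, whose part in the changes was not tested.

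**Figure D4:**
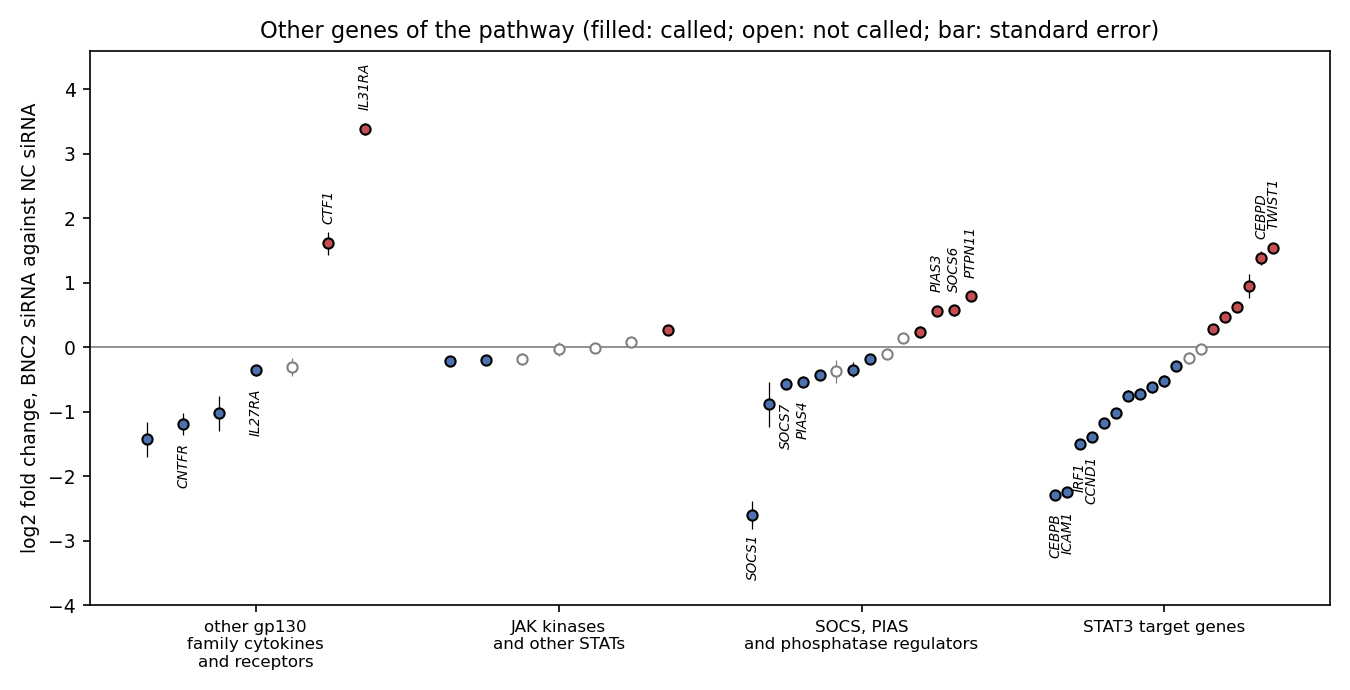
Log2 fold change of BNC2 siRNA against NC siRNA for the 47 tested genes of 4 pathway lists, each point a gene with its standard error, filled where it passed the test (red up, blue down) and open where it did not. The kinases and STATs stay close to 0, with a median of -0.025, whereas the other lists spread from SOCS1 at -2.60 and CEBPB at -2.29 to IL31RA at 3.39. SOCS1, CISH and EBI3 passed the filter through the controls.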

How the data were processed

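Poly(A) RNA of 3 NC siRNA and 3 BNC2 siRNA samples of BT549 cells was sequenced as single-end reads. Groups and replicate numbers were taken from the sample labels, and the methods call the replicates biological. The authors aligned reads to hg19 with STAR (2.6.1d in the submitters' processing notes) and the iGenomes UCSC annotation. They deposited raw counts per gene, as uniquely mapped reads, which in all 23346 genes equal the reverse-strand counts of the library tables. Reads assigned to no gene (37.7% to 41.1% of a library) were left out.

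A gene was kept if it exceeded 1 CPM in 3 or more of the 6 libraries. The counts were scaled with TMM (factors 0.972 to 1.04) and tested with edgeR's quasi-likelihood test (edgeR 4.0.16, R 4.3.3) across all 12186 genes, with Benjamini-Hochberg adjustment and a call threshold of 0.05. Standard errors (SE) were obtained by dividing the absolute log2 fold change by the root of its F statistic. The fit was tested on simulated data. CPM values are TMM-normalised, and their precision is set by the 16093978 to 18246254 counts of each library. Counting intervals and the limit of 3 counts for a count of 0 cover counting error only.

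The members and the gene lists were chosen with earlier results of these data known. Beyond the members and BNC2, genes were named by a rule: from each list, up to 6 called genes with the largest change and 5 CPM or more on average in the higher group, and for LIF and IL6 the 5 genes of most similar pattern. Further list genes were named after their values were seen (OSM, IL31, IL27, IL11RA, IL12A, EBI3, SOCS4, CISH, PTPN2, SOCS5, JAK2, TYK2 and liver genes). Gene positions and exon lengths are from GENCODE 44 on GRCh37, the assembly of hg19, and promoter windows from RefSeq on GRCh38.p14. Protein sequences were not used here, and many genes of the lists are not reported by name. Alternatives were edgeR's likelihood ratio test, DESeq2 1.42.0, other scalings and filters, a replicate block, counts of both strands and leaving out each library.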

Additional observations from a re-analysis of the deposited data

How the results depend on the processing

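The 9 members kept their direction and their call under each of 14 alternatives (edgeR's likelihood ratio test, DESeq2, DESeq2 size factors, total counts only, no filter, filterByExpr, a replicate block, both strands, and leaving out each of the 6 libraries). Log2 fold changes ranged from -3.48 to -3.29 for LIF, -2.78 to -2.28 for IL6, -0.65 to -0.40 for IL6ST, 2.40 to 2.63 for IL6R and 0.26 to 0.36 for STAT3. IL11 was called only without the filter (log2 fold change -3.60, SE 1.19, adjusted p = 0.00551 by edgeR). Over all genes, the calls numbered 8084 to 8596 when a library was left out, 9662 of 18121 without the filter and 8514 with DESeq2. With total counts only, the median log2 fold change of all genes was -0.074 and 3950 genes rose and 4922 fell, against 4462 and 4417 with TMM.

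Libraries of the same replicate number showed no shared deviation (correlations of -0.26, -0.09 and -0.15). Libraries of different numbers gave correlations of -0.10 to 0.22. With 3 libraries per group, these values cannot tell whether the samples were prepared in pairs. With a replicate block 8400 genes were called and all 9 members kept their calls. The calls in the pathway lists numbered 34 to 40 over the alternatives, against 37. SOCS4 lost its call in 7, CISH in 5, PTPN2 in 5 and SOCS5 in 1 of the 14 alternatives, SOCS4 (adjusted p = 0.0602 by edgeR) and PTPN2 (0.0636) among them with a replicate block. STAT2 lost its call in 2, with total counts only (log2 fold change 0.19, adjusted p = 0.0518 by edgeR, whose range over the alternatives ended at 0.066 without NC siRNA replicate 3). Without BNC2 siRNA replicate 3, the log2 difference of the OSMR to LIFR ratio was 0.020 in place of -0.040, and over the libraries left out it ranged from -0.078 to 0.020. With mean transcript lengths, levels per kb were higher, for example 34.2 for LIF and 120.1 for IL6ST in controls. Low counts limit IL11, and the 3 libraries per group limit each ratio.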

Other observations

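The genes whose pattern over the 6 libraries was most like that of LIF, by the root mean square difference of centred log2(CPM + 0.5) values, were PGBD3 (0.0753), PLSCR4 (0.0982), PSG1 (0.148), CTSS (0.151) and WSB2 (0.168). WSB2, a SOCS box protein, went from 130 to 16.2 CPM and PSG1, a pregnancy-specific glycoprotein, from 27.7 to 2.85 CPM. CTSS, the lysosomal protease cathepsin S, went from 4.32 to 0.0406 CPM, a level below the 0.168 CPM that 3 counts give. The added 0.5 understates the change of low genes in this measure, so that their likeness to LIF or IL6 is overstated.

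The genes most like IL6 by the same measure were FGF18 (0.109), LONRF2 (0.137), ATOX1 (0.164), C12orf53 (0.188) and TNFSF15 (0.194). ATOX1, a copper chaperone, went from 68.5 to 12.4 CPM and TNFSF15, a cytokine of the TNF family, from 16.5 to 2.53 CPM. FGF18, a growth factor, went from 3.59 to 0.267 CPM. The fitted log2 fold changes of the low genes FGF18 (-3.66) and LONRF2 (-3.54) were larger in size than that of IL6 (-2.52). FGF18, LONRF2 and CTSS passed the filter through the controls, with BNC2 siRNA means of only 0.267, 0.289 and 0.0406 CPM. These likenesses rest on 6 libraries in 2 groups and describe the pattern only.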
